A study of Brassica napus with 23 samples.

Results

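In young plants of Brassica napus (oilseed rape), 150 of 101040 measured genes were taken as those whose transcripts fell most between an early and a late harvest in control shoots and control roots alike. Shoots and roots were collected 24 h or 7 d after the plants were given either LB broth, as control, or 15 mL of the bacterium Pseudomonas chlororaphis PA23 in culture. PA23 is a strain studied as a biocontrol agent. The groups are shoot control, shoot PA23, root control and root PA23, each at 24 h and at 7 d, with 3 libraries per group and 2 in root control at 24 h (replicates 2 and 3). The labels give no genotype, cultivar or pooling, and nothing in them states that replicates came from separate plants, so each p-value measures only the spread between these libraries. Treatment came 7 days after planting and growth lasted 14 days in all, per the labels, so the late harvest also holds older plants and time since treatment cannot be told apart from age.

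The genes were chosen by measured values of these same libraries, in CPM (counts scaled to a common library total; depths are written in M, mega-counts). For each gene the control groups were averaged over libraries of at least 2 M counts, and the log2 ratio of 7 d over 24 h was taken in shoot and in root after adding 0.5 CPM. Genes had to average 5 to 300 CPM over both control harvests in each tissue, to fall in both tissues, and to differ by less than 0.5 on the log2 scale between PA23 and control roots at 24 h. Of the 101040 genes, 21412 (21.2%) lay in the level range of both tissues and are called comparably abundant genes here. All conditions were met by 3863 genes. The 150 whose smaller fall of both tissues was largest were kept, 0.701% of the comparably abundant genes.

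Brassica napus carries an A and a C subgenome, inherited from separate parent species, so that many genes exist as near-identical copies on paired chromosomes. As seedlings grow, organs pass from dividing and expanding tissue to mature tissue, and transcripts of young tissue are replaced by those of differentiated cells. A bulk transcript level can fall because each cell holds less of the RNA or because fewer cells of the type that makes it are present, and these cannot be told apart here. The IDs could not be tied to functions: 3 of the 150 (BnaA10g18370D, BnaC03g37520D and BnaC05g40760D) have a case-insensitive symbol match in RefSeq (assembly Da-Ae), each as a protein-coding gene with no description. The labelled tissues could not be checked against marker genes for the same reason.

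Depth ran from 0.622 to 721 M counts over the 23 libraries, and 6 libraries in 6 groups held 0.622 to 1.7 M. In shoot PA23 at 7 d, replicate 2 (0.883 M counts) stood apart. The 150 genes summed to 5580 CPM there, against 3152 CPM in replicate 1 and 3175 CPM in replicate 3. The shoot PA23 libraries at 24 h held 6128, 5691 and 5784 CPM, so this 7 d library lay next to the 24 h group for these genes. Replicates 1 and 3 of the same group were unusually alike. The bracketed parts of their titles end in the same number, and the labels do not say whether they came from the same plant. Their counts differed by a mean chi-square of 3.04 per gene, where independent counts that differ by sampling alone give 1 and counts of both mates of a read pair give 2. The other 9 replicate pairs of libraries of at least 2 M counts gave 3.89 to 120. Counts of genes called between 24 h and 7 d in PA23 shoots are therefore given with and without replicate 2, and with replicates 1 and 3 summed and counted as 1 library. The comparison of tissues at 7 d was not run with replicates 1 and 3 summed.

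In the controls, whose values chose the genes and are a description only, the summed level fell in both tissues. Control shoots at 24 h held 5743, 6661 and 6470 CPM in the 150 genes, and those at 7 d held 3068, 3796 and 3856 CPM. Control roots held 8307 and 8739 CPM at 24 h and 5217, 5164 and 5303 CPM at 7 d. In neither tissue did the harvests overlap. Of these libraries, shoot control 24 h replicate 1, shoot control 7 d replicate 2 and root control 7 d replicate 3 were too shallow to enter the choice, and each lay closer to the other libraries of its harvest than to the other harvest. The 7 d control shoots that did enter it, replicates 1 and 3, were the least alike of the deep replicate pairs (mean chi-square 120 per gene). The fall in control shoots that chose the genes rests on that pair at 7 d. Between the 2 shallow control shoots, 104 of the 150 genes (69.3%) were lower at 7 d, as were 55.8% of the comparably abundant genes.

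**Figure D1:**
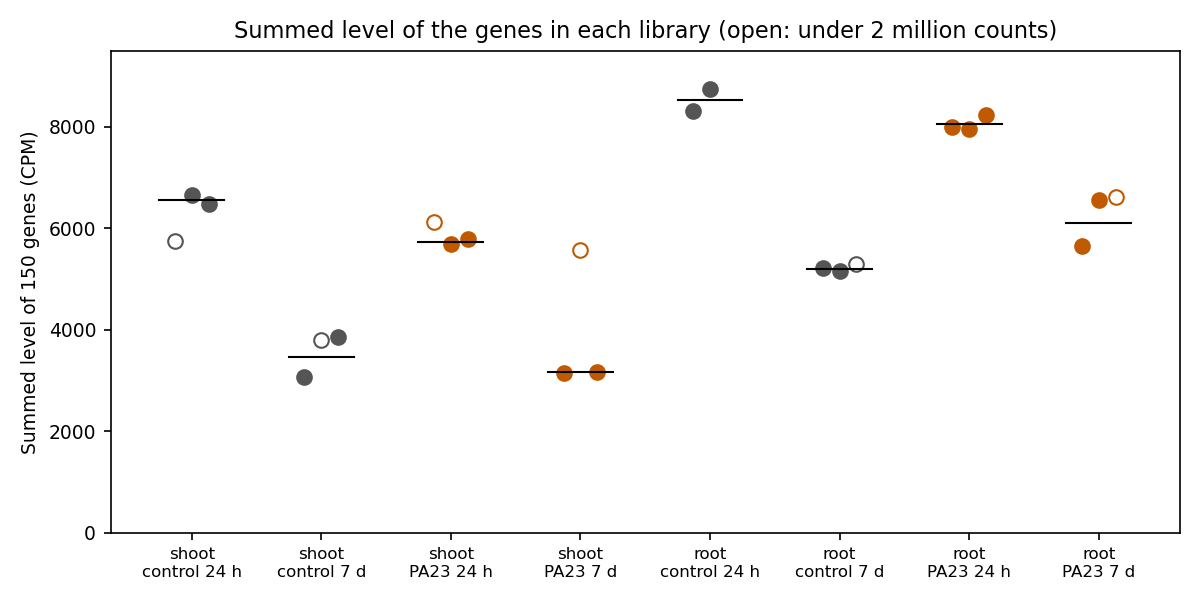
Summed level of the 150 genes (CPM, vertical axis) in each of the 23 libraries by group; filled points hold at least 2 M counts, open points fewer, and the line is the mean of the filled points. Sums lie between 3068 and 8739 CPM, and the open point of shoot PA23 at 7 d (5580 CPM) lies near the 24 h shoots.

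The fall was larger in shoots than in roots for 110 of the 150 genes (73.3%). The median log2 change was -0.88 in control shoots (-3.03 to -0.41) and -0.60 in control roots (-2.01 to -0.41). A log2 change of -1 or below was seen for 61 genes in control shoots, for 23 in control roots and for 15 in both. Across the 150 genes the changes in the 2 tissues had a Spearman coefficient of 0.32, a description over genes that the same libraries measured. Over the comparably abundant genes the medians were 0.04 in shoots and 0.005 in roots (control CPM means, log2). The values that chose the genes end close to a continuum: the last members in the ranking, BnaC02g19980D, BnaC08g00370D and BnaAnng10230D, had changes of -0.49, -0.59 and -0.90 in control shoots and -0.41 in control roots, and the next 3 genes, BnaAnng09100D, BnaC01g15280D and BnaA03g23570D, had -0.66, -0.56 and -0.55 in shoots and -0.40 in roots.

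**Figure D2:**
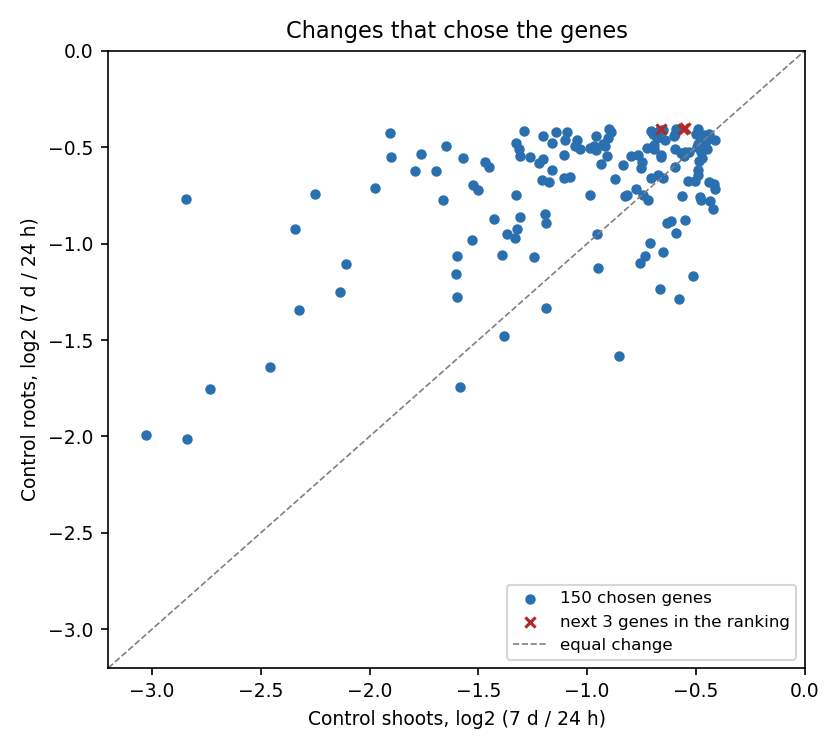
Change of each of the 150 genes from 24 h to 7 d in control shoots (horizontal axis, log2) and control roots (vertical axis, log2), with the next 3 genes of the ranking as crosses. Points left of the dashed line (110 of 150) fell further in shoots.

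The first 4 genes of the ranking, which orders genes by the smaller fall of both tissues, are given in full. BnaC09g40660D (chromosome C09, 43021824 to 43023899, plus strand; coordinates as in the deposited table, whose build no source names) led the ranking. In control shoots it lay at 5.67, 30.3 and 24.6 CPM at 24 h and at 2.25, 3.53 and 4.57 CPM at 7 d, in the order of replicates 1 to 3. In control roots it lay at 22.5 and 25.9 CPM at 24 h (replicates 2 and 3) and at 4.99, 6.25 and 9.65 CPM at 7 d. All control libraries at 7 d thus lay below all control roots at 24 h, and the shallow shoot replicate 1 at 24 h was the low library of its group.

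BnaA10g17370D (A10, 12883556 to 12885711, plus strand) was second, with 21.2, 25.6 and 21.5 CPM in control shoots at 24 h and 0.959, 5.88 and 3.94 CPM at 7 d. Control roots held 23 and 31 CPM and then 3.47, 9.36 and 12.9 CPM. No source used here says how reads shared by near-identical copies were assigned, so the levels of genes with such copies are uncertain.

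BnaC05g00840D (C05, 428371 to 432140, plus strand) and BnaA10g00780D (A10, 377525 to 380804, plus strand) came next and were far more abundant. BnaC05g00840D held 86.4, 112 and 100 CPM in control shoots at 24 h and 9.52, 22.3 and 21.6 CPM at 7 d, and in control roots 215 and 196 CPM and then 48.9, 72.5 and 41.8 CPM. BnaA10g00780D held 142, 129 and 132 CPM and then 13.8, 31.7 and 32.9 CPM in control shoots, and 244 and 220 CPM and then 61.1, 87.1 and 65.9 CPM in control roots. Both were higher in roots than in shoots at either harvest and kept that order while falling. A larger fall in 1 tissue did not place a gene as high: BnaA08g08140D, named after its values were seen, changed by -2.84 in control shoots and by -0.77 in control roots.

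Whether the 150 genes also fell in shoots treated with PA23 is the one question on time that uses libraries outside the choice. With all 3 libraries per harvest, 15 of the 150 (10%) were lower at 7 d and 0 higher (quasi-likelihood test of edgeR, p adjusted over 56654 genes by Benjamini-Hochberg, threshold 0.05; log2 fold changes -2.92 to -1.30). Of all genes tested, 0.3% were called lower and 0.45% higher; of the comparably abundant genes, 0.308% and 0.29%. The other 135 did not pass. The median fitted log2 change was -0.74 over the 150 (140 below 0) against -0.003 over all genes tested and -0.07 over the comparably abundant ones. Without replicate 2 at 7 d, 48 of the 150 (32%) were lower, against 0.887% of all genes and 1.16% of the comparably abundant ones, and all 15 genes were again among them. Without the 4 shoot libraries under 2 M counts, 29 (19.3%) were lower, against 0.776% of all genes. In both of these fits replicates 1 and 3, the unusually alike pair, are the only PA23 shoots at 7 d. Their counts of genes therefore hold only if that pair are separate replicates, which the labels do not state. With replicates 1 and 3 summed, 0 of the 150 passed (edgeR; 0.00868% of all genes did; 41 of the 150, and 2.43% of all genes, had an unadjusted p under 0.05 and a lower level at 7 d), and the median was -0.62. Without 7 d replicate 1 or replicate 3 the count was 0 as well, and without 24 h replicate 1, 2 or 3 it was 5, 9 and 9. Of all genes, 0.163%, 0.0923% and 0.225% were called lower in the latter 3 fits, and 0.00867% without 7 d replicate 1 or 3. The calls were thus lost whenever replicates 1 and 3 did not both count as separate libraries. Such fits also hold fewer libraries and give the shallow replicate 2 more weight at 7 d, and which of these matters was not tested. DESeq2 called 11 of the 150 lower, against 0.24% of the genes to which it gave an adjusted p, and 10 of these were among the 15.

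**Figure D3:**
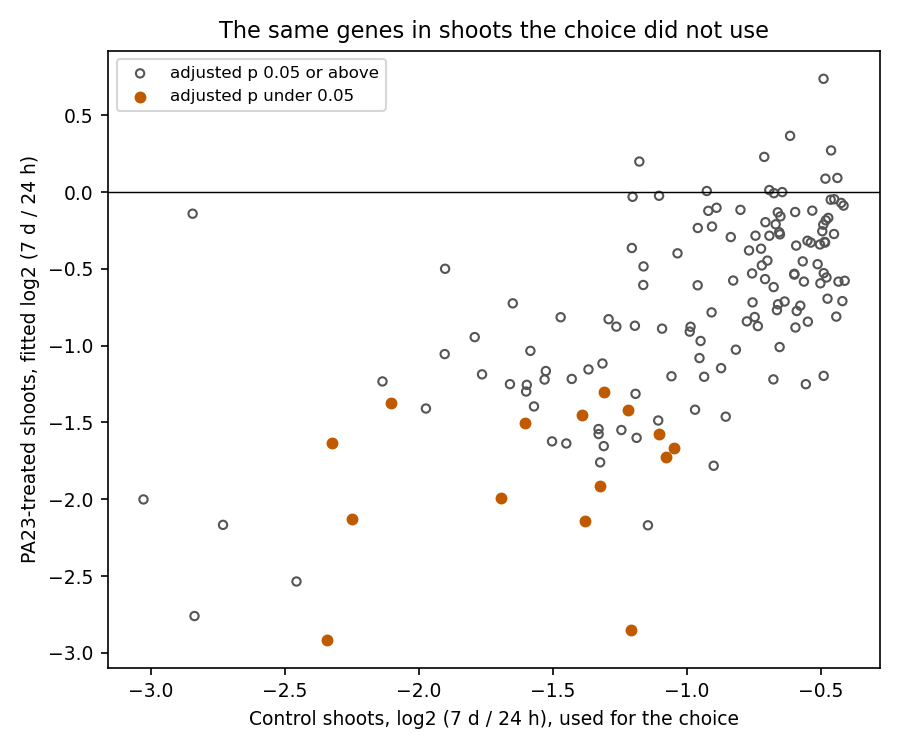
Fitted log2 change from 24 h to 7 d in PA23-treated shoots (vertical axis) against the change in control shoots that chose the genes (horizontal axis, log2), 1 point per gene; filled points are the 15 genes with an edgeR adjusted p under 0.05. Of the 150 points, 140 lie below 0.

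Over the 150 genes the change in deep PA23 shoots (means of CPM, as in the choice) and the change in control shoots had a Spearman coefficient of 0.68, against 0.46 over the 21412 comparably abundant genes, both a description over genes; the 2 comparisons share no library. Of the 150, 67 (44.7%) fell by 1 or more on the log2 scale in the deep PA23 shoots, as did 2.19% of the comparably abundant genes. On this scale, which is divided by library totals and not otherwise scaled, the comparably abundant genes also had a median below 0 (-0.16), against -0.82 for the 150. The 24 h libraries all lay above the 7 d libraries for 139 of the 150 genes (92.7%) among libraries of at least 2 M counts, and for 26.8% of all genes and 46.8% of the comparably abundant ones. At 7 d the deep PA23 shoots were replicates 1 and 3 alone, the unusually alike pair. The labels do not state that these are separate replicates, so the values from deep libraries may hold no independent replication at 7 d. With the shallow libraries included, the 24 h libraries all lay above those at 7 d for 37 of 150 (24.7%), 7.46% of all genes and 15.2% of the comparably abundant ones. Between the 2 shallow PA23 shoots alone, 83 of the 150 (55.3%) were lower at 7 d, as were 50.8% of the comparably abundant genes.

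The largest fitted fall in PA23 shoots was that of BnaA10g18370D (A10, 13327852 to 13328584, minus strand). It lay at 41.0, 30.9 and 26.3 CPM at 24 h and at 3.63, 10.2 and 3.38 CPM at 7 d. The groups did not overlap, and replicate 2 was the highest of the 7 d libraries. Its log2 fold change was -2.92 (SE 0.42, edgeR adjusted p = 0.0019), and -3.07 without replicate 2 (edgeR adjusted p = 0.000403). It missed the threshold with replicates 1 and 3 summed (edgeR adjusted p = 0.0643). In roots it was scarce, at 7.0 and 8.03 CPM in controls at 24 h and 3.59, 3.87 and 1.61 CPM at 7 d.

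Its neighbour BnaA10g18360D starts at a coordinate 1341 bases lower on the same strand and is also one of the 150 (named after its values were seen). PA23 shoots held 117, 103 and 104 CPM of it at 24 h, and 18.3, 134 and 17.1 CPM at 7 d. Replicate 2 at 7 d was the highest of the 6 libraries, unlike for BnaA10g18370D. Whether the counting could separate reads of such close genes is unknown, so both values are uncertain.

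BnaA08g01090D (A08, 851225 to 854580, minus strand) was second, at 10.9, 29.8 and 10.7 CPM at 24 h and 2.50, 4.53 and 2.15 CPM at 7 d in PA23 shoots (log2 fold change -2.85 with an SE of 0.49; edgeR adjusted p = 0.00713). All 7 d libraries lay below all those at 24 h, though 24 h replicate 2 stood far above the other 2. Without that library the change was -1.99 (edgeR adjusted p = 0.0927), and with replicates 1 and 3 summed -2.76 (edgeR adjusted p = 0.156). Control shoots held less of it at 24 h (5.67, 9.60 and 5.54 CPM).

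The first 4 genes of the ranking did not pass in PA23 shoots with all libraries. BnaC09g40660D lay at 33.7, 18.2 and 16.3 CPM at 24 h and at 0.893, 36.2 and 1.01 CPM at 7 d (log2 fold change -2.76 with an SE of 1.52; edgeR adjusted p = 0.706). Replicate 2 at 7 d was higher than every 24 h library, and the other 2 were far below them. Without replicate 2 the change was -4.33 (SE 0.56, edgeR adjusted p = 0.000704). BnaA10g17370D likewise held 1.06, 36.2 and 2.06 CPM at 7 d after 13.7, 17.1 and 17.6 CPM at 24 h, and changed by -3.34 without replicate 2 (edgeR adjusted p = 0.00519; -2.0 and 0.789 with it). BnaC05g00840D held 92.9, 76.5 and 87.4 CPM at 24 h and 6.85, 74.7 and 6.88 CPM at 7 d. BnaA10g00780D held 165, 106 and 118 CPM and then 11.4, 66.8 and 11 CPM. Its change was -2.54 with all libraries (edgeR adjusted p = 0.188) and -3.41 without replicate 2 (edgeR adjusted p = 2.6e-05). Each adjusted p without replicate 2 rests at 7 d on the unusually alike replicates 1 and 3 alone, and holds only if these are separate replicates.

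**Figure D4:**
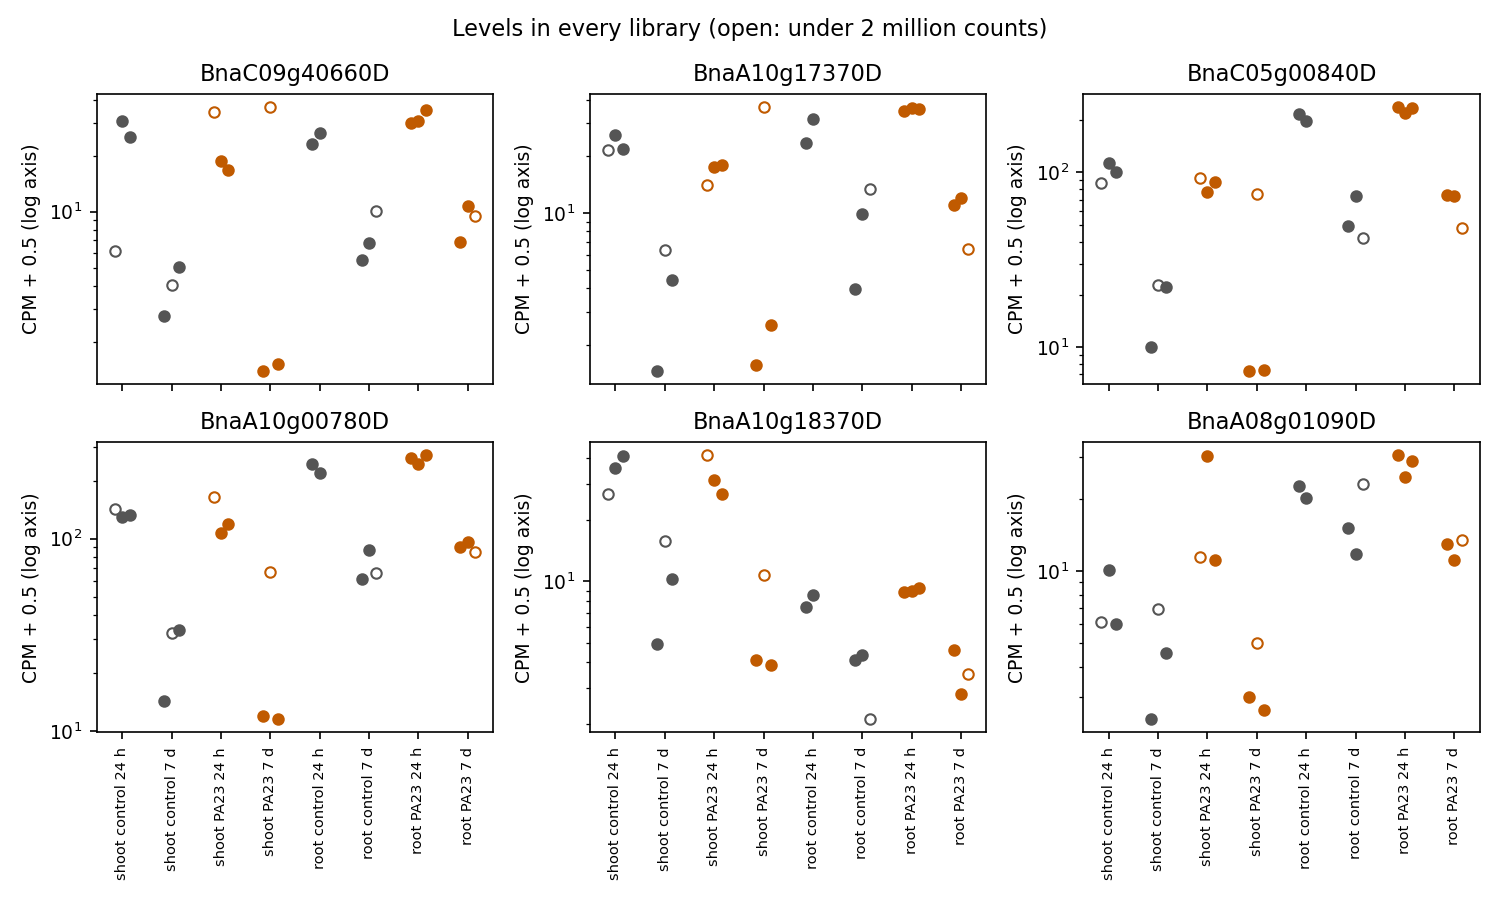
CPM plus 0.5 (log axis) of 6 of the genes in every library by group; open points hold under 2 M counts. In the first 4 genes of the ranking, the open point of shoot PA23 at 7 d lies far above the filled points of its group.

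Among the 15, BnaA05g28870D (A05, 20369400 to 20372057, minus strand), chosen after its values were seen, had the smallest adjusted p (edgeR, 0.00137). It lay at 25.5, 20.1 and 18.4 CPM at 24 h and at 3.83, 11.3 and 4.86 CPM at 7 d, with no overlap (log2 fold change -1.99, SE 0.30). BnaC05g40760D (C05, 38807371 to 38809030, minus strand), matched to RefSeq, went from 17.3, 13.9 and 11.8 CPM to 3.69, 9.06 and 3.74 CPM (log2 fold change -1.66 with an SE of 0.39; edgeR adjusted p = 0.046) and passed in 1 of the 6 fits without a library. BnaC03g37520D (C03, 22982243 to 22983949, plus strand), also matched, went from 13.7, 14.2 and 10.0 CPM to 4.75, 6.79 and 3.88 CPM and missed the threshold (-1.40, SE 0.35, edgeR adjusted p = 0.0587). BnaCnng41950D (Cnn_random, 40965418 to 40969792, plus strand) was among the 5 largest fitted falls, at -2.17 (edgeR adjusted p = 0.219), with 12.8, 9.27 and 7.87 CPM at 24 h and 1.59, 11.3 and 1.41 CPM at 7 d.

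At the other end, 10 of the 150 had a fitted change at or above 0 in PA23 shoots, none past the threshold. BnaC03g22360D (C03, 12274196 to 12275414) lay at 9.11, 14.2 and 23 CPM at 24 h and at 28.3, 17.0 and 29.5 CPM at 7 d (log2 fold change 0.74 with an SE of 0.30; edgeR adjusted p = 0.408). BnaC09g16260D, BnaC05g43360D, BnaA06g16950D and BnaA10g24310D had 0.37, 0.27, 0.23 and 0.20. For BnaC05g43360D the 6 PA23 shoots lay together, at 12.8, 11.8 and 12.4 CPM and then 13.5, 13.6 and 14.8 CPM, while control shoots went from 22.7, 14.1 and 13.5 CPM to 6.71, 10.6 and 13 CPM. For BnaA10g24310D the low control library at 7 d was replicate 1 alone (1.65 CPM, against 16.5 and 14.0 CPM).

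In PA23-treated roots the 150 genes were mostly lower at 7 d too. No test is given, since the choice held the treated roots at 24 h within 0.5 (log2) of control roots. The high level of those control roots at 24 h was itself part of the choice. The comparably abundant genes had no such bound, so the shares below are a description and no support for a fall. Replicate 1 at 24 h came from the sequencing run NS.1514 and the other treated roots from NS.1522. Their sum was 7997, 7959 and 8238 CPM at 24 h and 5655, 6565 and 6610 CPM at 7 d, with no overlap. On the scale of the choice 121 of the 150 (80.7%) were below 0, with a median of -0.43 (-1.86 to 0.50), against 48.6% and 0.01 for the comparably abundant genes. Of the 150, 19 (12.7%) fell by 1 or more on the log2 scale, as did 1.3% of the comparably abundant genes. The 24 h libraries all lay above those at 7 d for 90 of the 150 (60%) among libraries of at least 2 M counts, for 17.8% of all genes and for 28.1% of the comparably abundant ones. The first 4 genes of the ranking were among the lower ones: BnaC05g00840D held 237, 217 and 233 CPM at 24 h and 74.0, 72.8 and 47.9 CPM at 7 d, BnaA10g00780D 262, 245 and 272 CPM and then 89.5, 95.4 and 84.8 CPM. BnaC09g40660D went from 29.4, 30.4 and 34.6 CPM to 6.41, 10.2 and 8.98 CPM and BnaA10g17370D from 34.4, 35.5 and 35.1 CPM to 10.5, 11.6 and 5.98 CPM. In each of these 4 the harvests did not overlap in treated roots.

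Between treated and control plants the control side had been used in the choice, so these values are a description. At 24 h the median log2 ratio of PA23 over control was -0.21 in shoots and -0.12 in roots, the latter held within 0.5 by the choice. The comparably abundant genes had 0.04 in shoots and 0.007 in roots. At 7 d the median ratio of the 150 was -0.28 in shoots, where the comparably abundant genes had -0.18, and 0.18 in roots, where they had -0.01. The choice favours genes measured high in controls at 24 h and low at 7 d, so these ratios cannot be read as an effect of PA23. In roots at 7 d, 40 of the 150 (26.7%) were below control, against 51.1% of the comparably abundant genes.

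Levels in the 2 tissues were compared in PA23-treated plants at 7 d, with 6 libraries outside the choice. Of the 150 genes 39 (26%) were higher in root and 38 (25.3%) higher in shoot (edgeR, joint fit of all libraries, adjusted p under 0.05). Over all 68002 genes tested 29.8% were called higher in root and 22% lower in root, and over the comparably abundant genes 17.7% and 21.7%. In this fit the share of the 150 higher in root (26%) lay between that of the comparably abundant genes (17.7%) and that of all genes (29.8%). The share higher in shoot (25.3%) lay somewhat above both (21.7% and 22%). These differences were not tested. With each of the 6 libraries left out in turn, 26 to 47 of the 150 were higher in root and 34 to 37 higher in shoot. The root count thus depended on the libraries, and the order of the shares is given for the fit of all libraries alone. The median log2 root over shoot was -0.06 over the 150, -0.06 over the comparably abundant genes and 0.15 over all genes tested. All 3 treated roots at 7 d came from the sequencing run NS.1522 and all shoots from NS.1514, per the labels; a fit that adds the sequencing run as a term called 29 higher in root and 31 higher in shoot, against 24.9% and 15.5% of all genes.

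Single genes lay far apart between tissues. BnaA04g04450D (A04, 3275964 to 3276807) held 244, 319 and 203 CPM in treated roots and 2.12, 4.53 and 2.06 CPM in treated shoots at 7 d (log2 fold change 6.13, SE 0.39, edgeR adjusted p between 8.38e-14 and 6.03e-11 without any one library). BnaC04g26730D (C04, 28072588 to 28073380) had a like pattern, at 144, 210 and 174 CPM against 2.25, 4.53 and 2.42 CPM. BnaA09g51980D (A09_random, 181174 to 183288) held 52.7, 54.5 and 59.8 CPM against 1.32, 9.06 and 0.993 CPM. In these 3 genes the roots lay above the shoots in every library. Shoot-preferred members were BnaC03g37960D (C03, 23253416 to 23256820), with 99.8, 125 and 99.0 CPM in shoots and 6.71, 6.93 and 5.98 CPM in roots, BnaA03g37290D (A03, 18474431 to 18476963; log2 fold change -3.60) and BnaC07g17240D (C07, 23370499 to 23373299; -2.75). Genes that fell in both control tissues thus included some far higher in treated roots and some far higher in treated shoots.

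By position, 69 of the 150 genes (46%) lay on A chromosomes, as did 48.2% of the comparably abundant genes. Chromosome A10 held 16 of the 150 (10.7%) but 3.78% of the comparably abundant genes. Of the 809 comparably abundant genes there 1.98% were among the 150, against 0.701% in the whole table, 1.22% on C05 and 1.01% on C03; A07 had 0.211% and A01 0.221%. These shares describe the choice and were not tested. In PA23 shoots, which the choice did not use, 0.371% of the comparably abundant genes of A10 were called lower at 7 d (3 of 809; 1.61% without replicate 2), close to the 0.308% (1.16%) over all such genes. One of the 15 genes called in PA23 shoots was on A10.

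**Figure D5:**
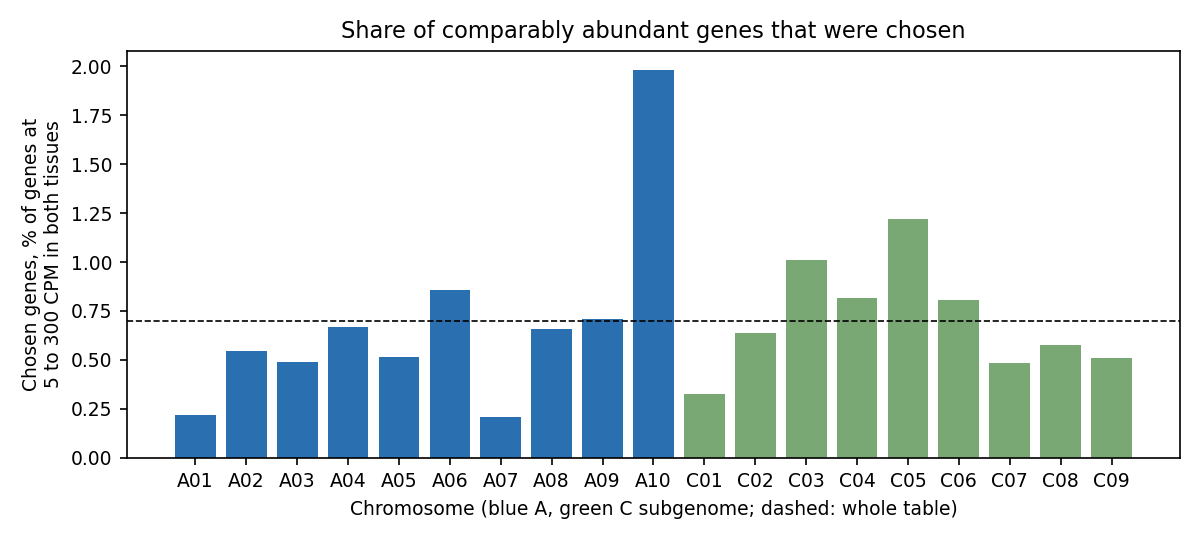
Share of the comparably abundant genes of each placed chromosome (bars, percent) that are among the 150, with the share over the whole table (0.701%) as a dashed line. A10 has the tallest bar at 1.98%.

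Among the 150 genes, 10 pairs began within 100 kb of each other on one sequence. No matching count over the comparably abundant genes was made, so whether this is few or many was not tested. The nearest were BnaA10g18360D and BnaA10g18370D, with no gene between them. On C05, BnaC05g43350D (40263505 to 40266181) and BnaC05g43360D (40270977 to 40273246) were also adjacent. BnaC05g43350D, named after its values were seen, went from 12.8, 7.77 and 9.36 CPM to 1.97, 4.53 and 1.73 CPM (log2 fold change -2.13, edgeR adjusted p = 0.0106), while its neighbour did not pass, as given above. The median gene span, introns included, was 2305 bases over the 150 and 2478 over the comparably abundant genes.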

How the data were processed

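RNA of 23 libraries was measured by sequencing. The deposited table holds raw whole-number counts for each gene and library. The submitters' processing notes name HISAT2 and DESeq2. No source used here gives their versions, the build, the annotation, the counting tool or the strand setting. Depth was 0.622 to 721 M counts per library; shallow libraries hold few counts per gene and limit precision. Among counts of 1 to 10, 18.9% to 33.6% were odd in 22 libraries (57.6% in root PA23 7 d replicate 1). Counting both mates of a read pair would give even counts, but no source says that this was done. A count may therefore not be an independent molecule. Columns were tied to samples by the bracketed part of the titles. The members, lists and tests were chosen with earlier results of these data known. Genes named are those matching RefSeq, the 5 largest and 5 smallest falls in PA23 shoots, the ends of the ranking with the next 3 genes, and the 3 most root- and shoot-preferred members; exceptions are marked.

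Tests used edgeR 4.0.16 under R 4.3.3 on the counts (filterByExpr, TMM, robust quasi-likelihood test, Benjamini-Hochberg adjustment over all genes tested). One fit held the 4 shoot groups and another all 23 libraries. SE is the log2 fold change divided by the square root of F. All 150 genes passed the filter in both fits. Alternatives were RLE size factors, no filter, DESeq2 1.42.0, other sets of libraries, a replicate block, the run, and other settings of the choice. The function lists by description words could not be filled, as the reference holds no descriptions. Of the 101040 IDs, 3347 (3.31%) matched a RefSeq symbol. The fits were also run on simulated counts as a check of the code. The outcome is not given here and is no support for the calls.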

Additional observations from a re-analysis of the deposited data

How the results depend on the processing

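The count of the 150 genes called lower at 7 d in PA23-treated shoots (15) depended on the libraries and settings. It was 9 with RLE size factors (0.263% of all genes tested were called lower in that fit), 25 when only the 2 PA23 shoot groups entered the fit (1.08%), 29 once the 4 shallow shoot libraries (under 2 M counts) were left out (0.776%), and 0 with replicates 1 and 3 at 7 d summed (0.00868%). Leaving out 1 library gave 0 to 48: 5, 9 and 9 without 24 h replicate 1, 2 and 3, and 0, 48 and 0 without 7 d replicate 1, 2 and 3, while the share of all genes ran from 0.00867% to 0.887%. With the choice made over all columns, 71 of 150 genes were shared and 7 of the new 150 were called, in the same fit as the 15 (0.3% of all genes); with a pseudocount of 1 CPM, 145 were shared and 15 called. With no filter, DESeq2 or a replicate block it was 19, 11 and 14, against 0.293%, 0.24% and 0.219% of all genes. The deviations of PA23 shoots with the same replicate number correlated at -0.13, -0.10 and 0.13, with 1 of 3 highest at its own number, so the numbers do not pair the samples and the block is no test of the effect. The median change stayed below 0 in every fit run (-0.84 to -0.59), and 0 genes were called higher in each. The median root over shoot (-0.06) was 0.0926 without the libraries under 2 M counts and ranged from -0.19 to 0.12 without 1 library; the cause was not tested. Of the genes not past the threshold, BnaC09g16260D turned to -0.28 without the libraries under 2 M counts and ranged from -0.18 to 0.82 without 1 library, BnaA06g16950D turned to -0.0053 without the shallow libraries, and BnaA10g24310D ranged from -0.0058 to 0.42 without 1 library. Depth limits the shallow libraries: 13 of the 150 genes had 0 counts in root control 7 d replicate 3.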
